A study of Mus musculus with 4 samples.

Results

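The comparison set mouse embryonic fibroblasts (MEFs) lacking cyclin G2 (CycG2-/-, called G2KO) against wild-type MEFs (CycG2+/+, called WT), to ask which transcripts depend on the Ccng2 gene. MEFs are connective-tissue cells grown in a dish from embryos. Its members were all genes read by a probe whose spots, in 1 genotype or in both, exceeded background clearly on each array. This held for 25431 of the 41174 gene probes on the array, which read 16517 of 27597 genes. RNA of 1 G2KO culture and 1 WT culture was hybridised together on 2 arrays of 2 colours, with the knockout RNA in Cy5 on the first array and in Cy3 on the second. The swap is technical, so no difference below has a biological replicate check and no p-value is given. All cultures were in logarithmic growth in medium with 10% serum. They were assigned to the strain C57BL/6J by one field of the labels and to C57BL/7J by another. The deleted stretch of Ccng2 is not given in the sources used here. The other 2 cultures, used for reference, are the WT and the cyclin G1 knockout (CycG1-/-, G1KO) of the series' other pair, which lay on the same slide.

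Cyclin G2 is an unusual cyclin that is known for slowing the cell cycle rather than driving it. It binds regulatory subunits of the protein phosphatase PP2A, takes part in the DNA damage response, and is raised in cells that leave the cycle. Its relative cyclin G1 is a direct target of p53, the transcription factor that halts the cycle after DNA damage. p53 turns on the CDK inhibitor p21 (Cdkn1a) together with its own inhibitor Mdm2. Fibroblasts of the embryo are also makers of collagen, elastic fibres and growth factors, and keep a memory of the body region they came from in their homeobox (Hox) genes.

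Ratios are given on the log2 scale as knockout over WT, where 1 is a 2-fold difference. A probe or gene was called when both arrays gave a ratio of 1 or more, or both gave -1 or less. "Higher" and "lower" refer to the RNA labelled G2KO, and a gene is read by its brightest tested probe. Of the 25431 probes, 1619 were called (6.37%), with 587 higher (2.31%) and 1032 lower (4.06%). Counted as genes, 453 were higher (2.74%) and 794 lower (4.81%) of 16517. These shares are the background for every list below. Across all genes the median ratio was -0.02, with quartiles of -0.27 and 0.23. The arrays correlated at r = 0.959 across the probes, the median SD between them was 0.08, and 0 probes passed 2-fold in opposite directions. Of the called genes with more than 1 tested probe, all tested probes were called in the same direction for 63 of 195 higher genes and 116 of 297 lower genes, so a call often rests on 1 probe.

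**Figure D1:**
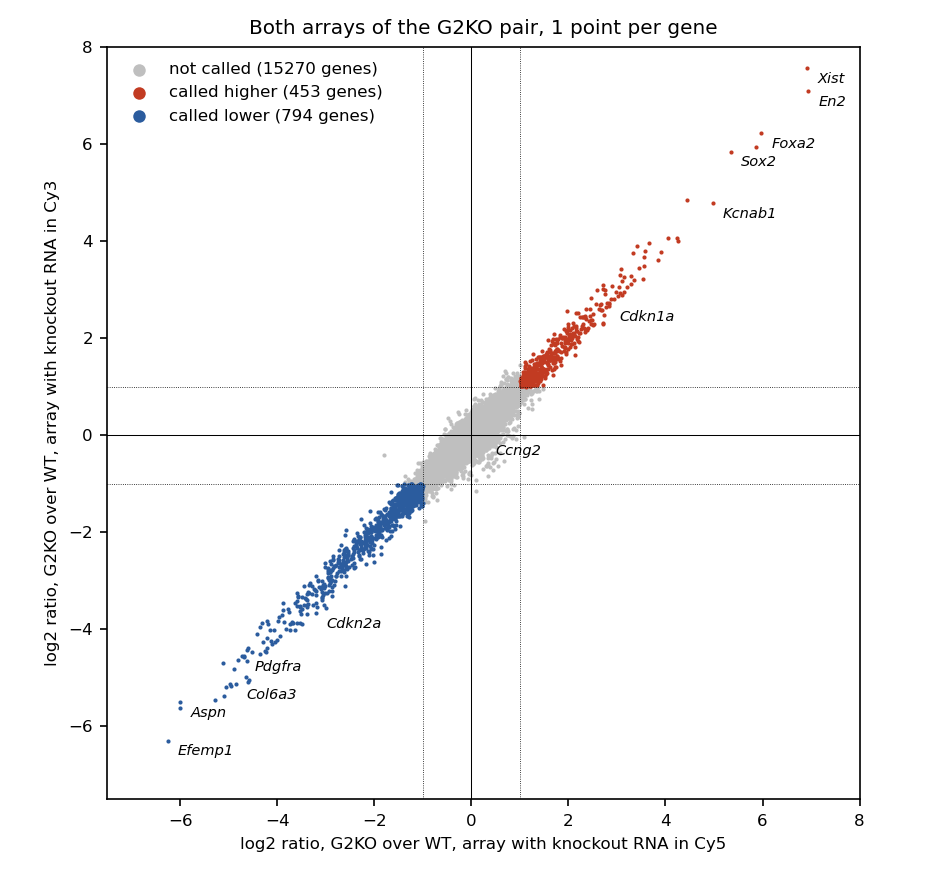
Log2 ratio of G2KO over WT on the array with knockout RNA in Cy5 (x axis) against that on the dye-swapped array (y axis), 1 point for each of 16517 genes, with dotted lines at 2-fold. The 453 genes called higher and 794 called lower lie along the diagonal, from En2, Xist, Foxa2 and Sox2 at the top to Aspn and Efemp1 at the bottom, while Ccng2 lies near the centre.

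The targeted gene was examined first. A single probe reads Ccng2 (chromosome 5, plus strand, 94351052 to 94351111, build mm8). Its ratio was 0.28 on the array with knockout RNA in Cy5 and -0.10 on the other, with a level of 12.08 in the RNA labelled G2KO and 11.99 in its WT. The ratio at this probe changed sign between the 2 arrays, and Ccng2 was not called. Whether the probe lies inside the deleted stretch is not known, so it does not check the label, and every direction below rests on the label. Ccng1 was higher, by 2.65 and 2.69 at one probe and by 2.52 and 2.46 at another. The other relatives, Ccni (cyclin I) and Gak (a kinase that binds cyclin G), had mean ratios of -0.32 and -0.27.

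Of 5 Y-linked genes tested, 3 were called lower, and of 5 X-linked genes that escape inactivation, Xist alone was called. Xist, the RNA that coats the inactive X chromosome, was higher by 6.91 and 7.56, and all 4 of its tested probes were called. Eif2s3y on the Y chromosome did not clear background in the knockout channel and was at least 51.3-fold lower. This bound sets the mean level of the brighter culture against the higher of the dim probe's own level and the lowest level well above background. Ddx3y, which passed background in the knockout channel on 1 of 2 arrays, was lower, with ratios of -4.42 and -4.09, and Kdm5d was at least 2.91-fold lower. Uty, with a mean ratio of -0.65, and Zfy1, with -0.05, were not called, nor were the X-linked Eif2s3x, with 0.37, and Ddx3x, with -0.18. Of 6 Y-linked genes on the array, 1 was detected in the RNA labelled G2KO and 5 in its WT. In the other pair, 5 were detected in the WT and 1 in G1KO. The study attributes the higher Xist in both knockouts to MEFs of female origin. Genotype, culture and the called sex-linked transcripts differed together, and cannot be told apart in any difference given here.

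Targets of p53 made up the list with the largest share of members called higher. All 40 genes of the list were tested, 21 were called higher and 1 lower, and 35 lay above 0, with a median ratio of 1.12 against -0.02 over all genes. The strongest was Eda2r, a member of the TNF receptor family, at 3.30 and 3.12 on the 2 arrays. Psrc1, a spindle-associated gene, followed at 2.76 and 3.00. Cdkn1a, which encodes p21, was higher by 2.84 and 2.66. Mdm2, the ubiquitin ligase that removes p53, gave 1.68 and 1.70, and both of its probes were called. In this list, 7 genes had tested probes that disagreed in call.

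Further called members act in feedback, arrest and repair. Trp53inp1, a p53-induced nuclear protein, had ratios of 1.93 and 1.90. Zmat3, an RNA-binding regulator of splicing, had 1.74 and 1.99, and Phlda3, an inhibitor of Akt, had 1.41 and 1.49. Aen, an apoptosis nuclease, reached 1.63 and 1.56, and Polk, a polymerase that copies across damaged bases, reached 1.52 and 1.32. Rprm, which arrests cells before mitosis, was at 1.98 and 1.90. Btg2, an antiproliferative gene, was at 1.21 and 1.16. Ccnd1, cyclin D1, is a driver of entry into the cycle that stood in the same list, and was higher by 2.31 and 2.29. The single member called lower was Pmaip1 (Noxa), a trigger of apoptosis, at -1.44 and -1.39. The apoptosis genes Bax and Bbc3 (Puma) had mean ratios of 1.04 and 0.46 and were not called, and neither was the damage-inducible Gadd45a at -0.39. Trp53 itself had a mean ratio of 0.46.

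Promoters of 3 of the called genes are shown because each holds the repeat that p53 binds. They are stretches of the 250 bases before a RefSeq transcript start (build GRCm38.p6), written 5′ to 3′ on the gene's strand, with the repeat in capitals. Cdkn1a is on the plus strand (chr17:29090856-29090978), Ccng1 on the minus strand (chr11:40755412-40755521) and Mdm2 on the minus strand (chr10:117710885-117710994).
Cdkn1a: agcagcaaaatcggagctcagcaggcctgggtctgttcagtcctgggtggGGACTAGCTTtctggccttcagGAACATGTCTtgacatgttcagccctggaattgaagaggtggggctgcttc
Ccng1: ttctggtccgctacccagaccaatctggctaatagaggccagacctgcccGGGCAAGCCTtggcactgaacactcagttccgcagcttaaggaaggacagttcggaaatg
Mdm2: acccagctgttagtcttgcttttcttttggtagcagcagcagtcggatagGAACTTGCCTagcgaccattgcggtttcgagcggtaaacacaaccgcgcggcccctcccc

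Of the p53 targets tested, 32 had a promoter in the table, and 11 of these (34.4%) held at least 1 p53 repeat, against 7.31% of the genes tested in the pair and 2216 of all 27025 genes with a promoter (8.2%). The pattern is symmetric, so 1 scan reads both strands, and a gene counted where any of its promoters matched. Among the targets called higher, 6 of 17 with a promoter held a repeat (35.3%), much like the 34.4% of those tested. Besides Cdkn1a, Ccng1 and Mdm2, the called genes with a repeat were Aen, Ckap2 and Polk. Bax, Ei24, Gadd45a, Ppm1d and Sesn1 held a repeat too and were not called. A pair of repeats with no more than 13 bases between them was found in Cdkn1a alone of the 32, and in 18 of the 27025 genes. The p53 motif was chosen after the ratios of these genes had been seen. A match describes letters in this window and does not show binding.

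The WT of the G2KO pair had the lowest level of the 4 cultures for most p53 targets. Levels are log2 of normalised intensity in single channels, averaged over the 2 arrays of each culture, and they depend on normalisation across arrays. Cdkn1a stood at 12.72 in the RNA labelled G2KO, 9.97 in its WT, 12.39 in the WT of the other pair and 11.62 in G1KO. Eda2r stood at 10.46, 7.26, 10.54 and 9.26 in the same order. For both genes, the RNA labelled G2KO was nearer to the other WT than to its own, which was the lowest of the 4. Its own WT was likewise lowest for Psrc1, whose levels were 14.64, 11.77, 14.38 and 13.50, and for Mdm2, with 12.98, 11.29, 13.14 and 12.22. Over the list, the WT of the G2KO pair was the lowest of the 4 cultures for 26 of 40 genes (65%), against 21.1% of all genes tested. With 35 of the 40 above 0 within the pair, part of this share follows from the ratios themselves. The same holds for such shares of the lists below. The median difference from the WT of the other pair was 0.19 for the RNA labelled G2KO, -0.96 for its own WT and -0.60 for G1KO. Of the 22 called members, 18 had a level in the other WT that was nearer to the RNA labelled G2KO than to its WT. In the G1KO comparison, which has its own WT, the list had a median of -0.60, with 1 member called higher and 6 lower of 39 tested.

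**Figure D2:**
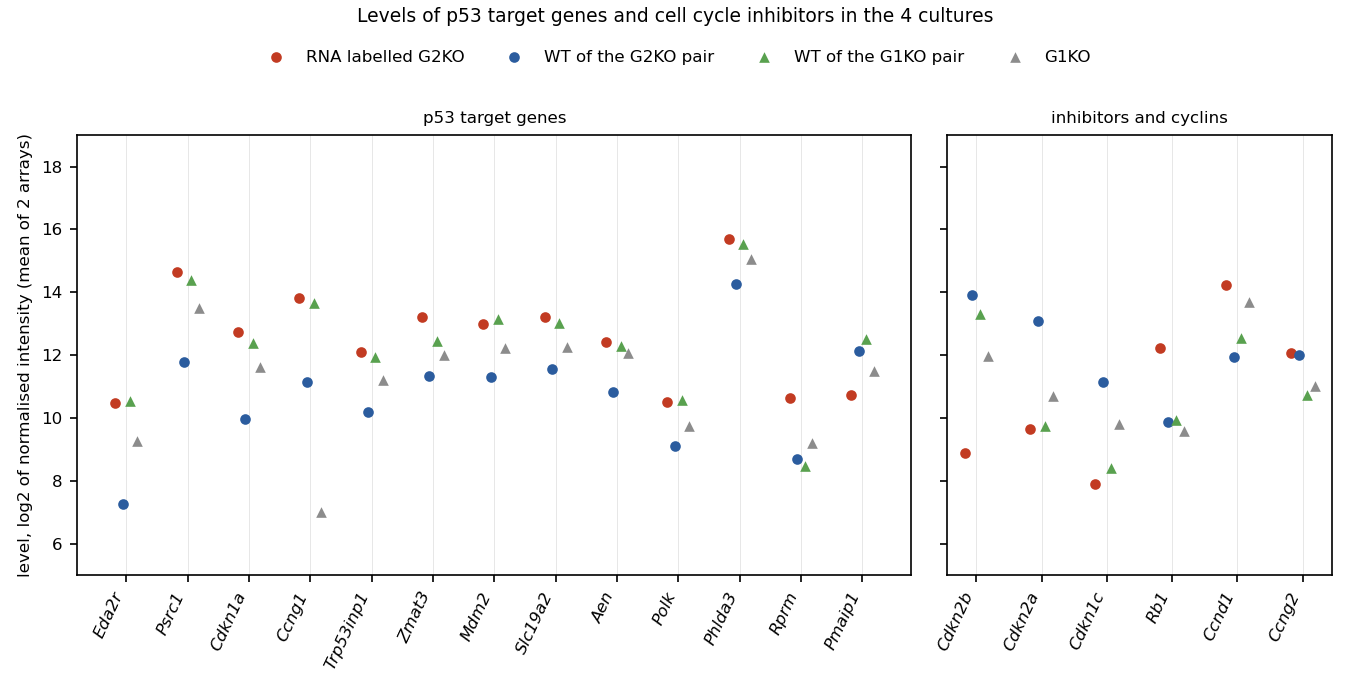
Levels of p53 target genes (left) and of cell cycle inhibitors, cyclin D1 and Ccng2 (right) in the 4 cultures, as log2 of normalised intensity (y axis, mean of 2 arrays per culture, no biological replicates). For Eda2r, Psrc1, Cdkn1a and Mdm2 the WT of the G2KO pair is the lowest point, while for Cdkn2b, Cdkn2a and Cdkn1c it is the highest.

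Inhibitors of the INK4 family went the opposite way from p21. Cdkn2b, which encodes p15, was lower, at -4.95 and -5.16, and Cdkn2a, which encodes p16 and p19Arf, by -3.21 and -3.67. Cdkn1c, the imprinted inhibitor p57, was lower, at -3.20 and -3.30. The retinoblastoma gene Rb1 was higher by 2.23 and 2.43. Cdkn1b (p27) had a mean ratio of 1.06 without passing on both arrays, and Cdkn2c (p18) had -0.56. The 4 cultures did not order in the same way for these genes. Cdkn2a was at 13.07 in the WT of the G2KO pair, against 9.63 in the RNA labelled G2KO, 9.74 in the other WT and 10.70 in G1KO. Cdkn2b, in contrast, was at 8.87 in the RNA labelled G2KO and at 13.92, 13.30 and 11.97 in the other 3 cultures. Rb1 was at 12.21 in the RNA labelled G2KO and between 9.57 and 9.92 in the rest.

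Genes of DNA replication and mitosis lay mostly above 0 by less than 2-fold. Of 51 replication genes tested, 46 were above 0 with a median of 0.38, and 1 was called, Mcm2 (part of the replicative helicase), at 1.08 and 1.06. Uhrf1, which guides DNA methylation at the fork, had 0.88 and 1.15, a gene that was not called. Of 52 mitosis genes tested, 48 were above 0 with a median of 0.56, and 2 were called. These were Aurkb (the kinase of the chromosomal passenger complex) at 1.31 and 1.30, and Mad2l1 (spindle checkpoint) at 1.21 and 1.13. Pttg1, the securin gene, was the exception among the larger values, at a mean of -0.85. In all, 7942 of 16517 genes tested lay above 0.

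The remaining cell cycle lists were shifted in the same direction. The median was 0.32 over 41 checkpoint and repair genes, of which 0 were called, and 0.30 over 20 cyclins and CDKs, of which Ccnd1 alone was called. Fanci and Fancd2, partners in the repair of cross-linked DNA, had mean ratios of 0.81 and 0.78. Chek1 and Chek2, the checkpoint kinases, had 0.58 and -0.05, and Atm had 0.41. Genes listed as replication-dependent histones had a median of 0.49 over 20 tested, and H2bu2 and H2bc21 were called, at 1.54 and 1.48. Whether each member is tied to S phase was not tested. The array amplifies from an oligo-dT primer, and most of these histone transcripts lack a poly(A) tail. The WT of the G2KO pair was the lowest of the 4 cultures for 32 of 51 replication genes (62.7%) and 31 of 52 mitosis genes (59.6%), and the RNA labelled G2KO was the highest for 37 of 52 mitosis genes (71.2%). Over all genes tested, these shares were 21.1% for the WT of the pair as lowest and 29.1% for the RNA labelled G2KO as highest. The G1KO comparison had medians above 0 for these lists too. They were 0.24 for replication, 0.13 for mitosis, 0.17 for checkpoint and repair, 0.06 for cyclins and CDKs and 0.32 for histones.

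Promoters of a replication gene and a mitosis gene show the motifs for which these groups are known. Mcm6, a helicase subunit with E2F motifs in capitals, is on the minus strand (chr1:128359706-128359865). Cdk1, the mitotic kinase with the cell cycle homology region (CHR) in capitals, is also on the minus strand (chr10:69352913-69353033).
Mcm6: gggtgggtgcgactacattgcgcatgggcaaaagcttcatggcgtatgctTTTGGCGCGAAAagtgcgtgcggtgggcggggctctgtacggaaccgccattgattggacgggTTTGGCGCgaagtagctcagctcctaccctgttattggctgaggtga
Cdk1: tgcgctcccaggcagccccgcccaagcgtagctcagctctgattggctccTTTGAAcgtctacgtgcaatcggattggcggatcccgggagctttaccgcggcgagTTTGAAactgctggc

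Neither gene was called: Mcm6 had a mean ratio of 0.10 and Cdk1 of 0.81. The E2F motif was searched as TTTCCCGC, TTTCGCGC, TTTGCCGC or TTTGGCGC, the CHR as TTTGAA and the CCAAT box as CCAAT, all on both strands, and E2F matches may overlap one another, as they do in Mcm6. An E2F motif stood in 10 of 42 replication genes with a promoter (23.8%), against 3.73% of the genes tested in the pair and 2.16% of all genes. The CHR stood in 15 of 42 mitosis genes (35.7%), against 12.8% of genes tested and 18.3% of all genes. The CCAAT box stood in 32 of 42 (76.2%), against 40.4% and 37.5%.

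Subunits of PP2A, the phosphatase that cyclin G2 binds, were level with 1 exception. Of 15 tested, the catalytic subunits Ppp2ca and Ppp2cb had mean ratios of -0.17 and -0.12, and the scaffold Ppp2r1a had 0.05. The B' subunit Ppp2r5c, the known partner of cyclin G2, had -0.25, and the other B' genes Ppp2r5a and Ppp2r5d had -0.48 and 0.43. Ppp2r2b, a regulatory subunit best known from the brain, was at least 6.45-fold higher, with 1 of its 2 tested probes called. Its level was 8.87 in the RNA labelled G2KO, 9.22 in the other WT and 8.53 in G1KO, and 6.08 in the WT of the pair, which was not well above background.

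Regulators of the midbrain, floor plate and neural tube included the largest rises after Xist. Of 40 on the array, 17 were detected in the RNA labelled G2KO and 13 in its WT. Otx2, Pax6, Wnt1 and Shh were among those detected in neither. Of 17 tested, 7 were called higher and 1 lower, with a median of 0.86. Over the 12 above background in both cultures the median was 0.16. En2, the engrailed homeobox gene of the midbrain and hindbrain boundary, was higher by 6.94 and 7.09. Its level was 14.28 in the RNA labelled G2KO, 7.26 in its WT, and 6.32 and 6.25 in the other WT and G1KO. Sox2, a factor of neural progenitors, was higher by 5.35 and 5.84, with levels of 12.35, 6.75, 5.79 and 5.93. For both genes a single culture stood far above the other 3.

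Several further regulators were highest in the RNA labelled G2KO. Cnpy1, which lies beside En2 on chromosome 5 (28533437 to 28533496, build mm8) and modulates FGF signalling at the same boundary, had 3 probes called of 3 tested, with 4.45 and 4.85 at the brightest, which passed background in WT on 1 of 2 arrays. Sox21 was at least 6.98-fold higher and Dmrta1 at least 9.26-fold, both factors of the developing brain. Nkx2-2, of the ventral neural tube, was higher by 2.28 and 2.43, with WT above background on 1 of 2 arrays. Zfp536, a zinc finger gene of the brain, was higher by 3.67 and 3.95, and Sox6, which acts in progenitors of glia and cartilage, by 3.33 and 3.75. Pantr1, a noncoding transcript beside a brain POU-domain gene, was higher by 4.26 and 4.01. In the other WT and in G1KO, the levels of Cnpy1, Sox21, Dmrta1, Nkx2-2, Zfp536, Sox6 and Pantr1 all lay between 5.90 and 6.25.

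Foxa2, the forkhead factor of floor plate and gut, followed another pattern. It was higher by 5.98 and 6.22, but its level was 13.10 in the RNA labelled G2KO, 7.00 in its WT, 13.71 in the other WT and 12.55 in G1KO. The WT of the G2KO pair alone was low. Kcnab1, a potassium channel subunit, was alike, with ratios of 4.97 and 4.79 and levels of 13.45, 8.57, 13.70 and 12.25. Pax3, of the dorsal neural tube and neural crest, was lower, at -2.79 and -2.90, with a level of 10.39 in the WT of the pair and between 7.06 and 7.82 elsewhere. En1 and Nkx6-1 had mean ratios of 0.86 and 0.99 and were not called.

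Other neural lists did not follow as a whole. Among 23 glial and neural crest genes tested, 5 were called higher and 5 lower, with a median of -0.08. Gpm6b, a membrane glycoprotein of neurons and glia, was higher by 5.87 and 5.93 at 1 of its 2 tested probes, and Nes (nestin), a filament of progenitors, by 3.54 and 3.21. Slc1a3, a glutamate transporter of astrocytes, was lower, at -4.21 and -4.18, and Sox9 at -3.16 and -2.99. The glial markers Sox10 and S100b had mean ratios of -0.08 and -0.05. Of 26 neuronal genes on the array, 9 were tested. Kcnab1 was called higher, and Cacna1g (a calcium channel) and Map2 (a microtubule protein of dendrites) lower. Dcx, Snap25, Nefl, Syp and Rbfox3, defining markers of neurons, were well above background on both arrays in neither culture of the pair, and Tubb3 had a mean ratio of -0.73.

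Factors of mesenchyme and skull were called in both directions. Of 44 tested, 8 were higher and 18 lower, with a median of -0.72. This median moved to -1.19 with the series table's ratio and to -0.13 with no filter on dim probes. Alx1 and Alx4, homeobox genes of the frontal skull, were lower, at -4.68 and -4.55 and at -4.26 and -4.45. Ebf3 was lower, at -3.95 and -4.13, Foxc2 at -3.60 and -3.52, Twist2 at -2.44 and -2.54 and Prrx1 at -2.07 and -1.99, all factors of fibroblast precursors, and 5 of the 6 tested probes of Prrx1 were called. Tbx3, Msx2, Gata6 and Osr1 were higher, with mean ratios of 2.99, 2.78, 2.62 and 1.63. Tested probes disagreed in call for 10 genes of the list. The levels of Alx1 were 6.58 in the RNA labelled G2KO, 11.20 in its WT, 6.02 in the other WT and 5.92 in G1KO, so that 1 WT culture stood apart from the other. Gata6 was at 9.24 and 6.61 in the pair, and at 13.80 and 12.31 in the other WT and G1KO.

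Hox genes set the pair apart from the other cultures more than they set its 2 members apart. Of 38 Hox genes on the array, 9 were detected on both arrays in the RNA labelled G2KO and 5 in its WT, against 30 in each culture of the other pair. A group of 19 was detected in both cultures of the other pair and in neither of this one, and it held Hoxb4, Hoxb7 and Hoxb9. Hoxb2 was at 6.54 in the RNA labelled G2KO and 6.01 in its WT, and at 12.07 and 11.35 in the other WT and G1KO. Wt1, a factor of mesothelium and kidney that the study's text names, was not well above background in either culture, with levels of 5.93 and 5.93 against 13.41 and 10.36 in the other pair.

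**Figure D3:**
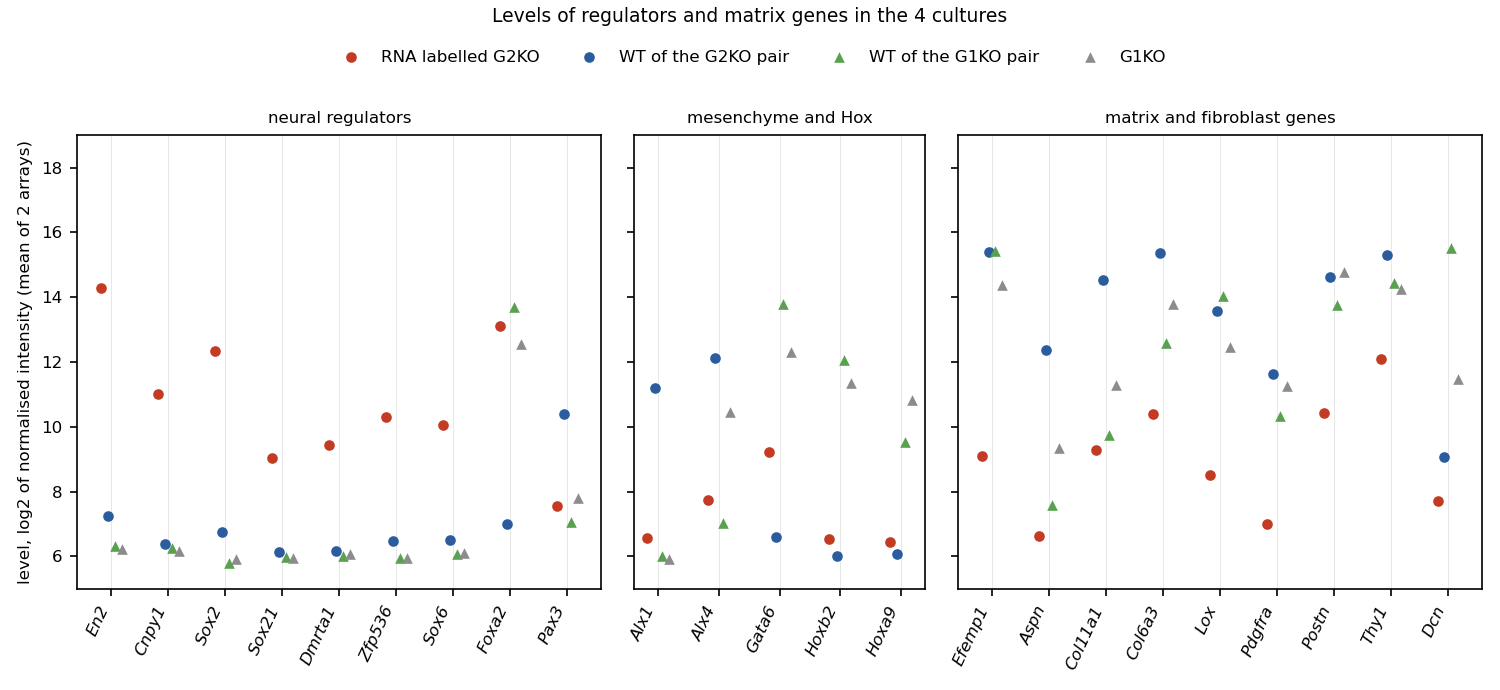
Levels of neural regulators (left), mesenchyme and Hox genes (middle) and matrix and fibroblast genes (right) in the 4 cultures, as log2 of normalised intensity (y axis, mean of 2 arrays per culture, no biological replicates). En2, Cnpy1, Sox2, Sox21, Dmrta1, Zfp536 and Sox6 are highest in the RNA labelled G2KO, Foxa2 is low in its WT alone, Hoxb2 and Hoxa9 are low in both cultures of the pair, and Efemp1, Lox, Pdgfra and Postn are low in the RNA labelled G2KO.

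Markers of fibroblasts were checked against the label, since all 4 cultures are labelled as MEFs. Of 23 markers on the array, 20 were detected in the RNA labelled G2KO and 22 in its WT. Vim, the filament of mesenchymal cells, had ratios of 0.48 and -0.37, which differ in sign, with levels of 16.42 and 16.37. Of 22 tested, 0 were called higher and 11 lower, with a median of -1.13. Pdgfra, the receptor that marks many fibroblasts, was lower, at -4.69 and -4.57, with levels of 7.01 in the RNA labelled G2KO and of 11.64, 10.34 and 11.26 in the other 3 cultures. Ddr2, a collagen receptor, was lower, at -4.07 and -4.02, and Thy1 at -3.09 and -3.34. Postn (periostin) was lower, at -4.14 and -4.24 at 1 of 2 tested probes. Pdgfrb and S100a4 had mean ratios of -0.88 and -0.53 and were not called. The RNA labelled G2KO was the lowest of the 4 cultures for 15 of the 22 markers (68.2%), against 23.2% of all genes. In bulk RNA, fewer cells of a type and less RNA per cell cannot be told apart.

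Collagen chains had the lowest median of all lists but that of Y-linked genes, at -1.50 over 31 tested, of which 19 were called lower and 3 higher. Col11a1, a fibril chain of cartilage and tendon, was lower, at -5.09 and -5.37, and all 3 of its tested probes were called. For 8 chains, the tested probes disagreed in call. Col6a3, of the beaded filaments around cells, was lower, at -4.86 and -5.13. The main fibril chains Col3a1, Col1a2 and Col1a1 had mean ratios of -2.90, -2.31 and -1.38. Basement membrane chains Col4a1, Col4a2, Col4a5 and Col4a6 were also lower, at -1.81, -1.25, -1.65 and -2.73. Col18a1, the source of endostatin, was higher by 3.55 and 3.66, and Col22a1 (above background in WT on 1 of 2 arrays) and Col5a3 were higher by means of 2.05 and 1.19. With no filter on dim probes the median was -0.65. Col1a1 was at 15.72 in the RNA labelled G2KO, 17.10 in its WT, 16.65 in the other WT and 16.10 in G1KO, while Col11a1 was at 9.29, 14.52, 9.75 and 11.29. For Col11a1 it was the WT of the pair that stood apart. Over the 31 chains, the WT of the pair was the highest of the 4 cultures for 19 (61.3%, against 31.5% of all genes), and the RNA labelled G2KO was the lowest for 18 (58.1%, against 23.2%).

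Elastic fibre genes and small leucine-rich proteoglycans, which organise fibrils, were lower without an exception among those called. Of 24 elastic fibre and cross-linking genes tested, 10 were lower, with a median of -0.88. With the main processing, Efemp1 (fibulin-3) had the largest fall of all genes above background in both cultures, at -6.26 and -6.30. Its level was 9.11 in the RNA labelled G2KO and 15.39, 15.44 and 14.39 in the other 3. Lox, the enzyme that cross-links collagen and elastin, was lower, at -4.98 and -5.12, and its level of 8.52 was likewise below 13.57, 14.03 and 12.45. Ltbp2, Fbn2 and Mfap2, of the microfibril, had mean ratios of -3.39, -3.23 and -3.10. Of 12 small leucine-rich proteoglycans tested, 5 were lower. Aspn (asporin) was lower, at -6.00 and -5.50, and Omd, Ogn and Bgn had means of -4.15, -3.91 and -3.85. Aspn was at 6.64 in the RNA labelled G2KO and 12.39 in its WT, but at 7.58 in the other WT.

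Among other matrix glycoproteins, 12 of 28 were lower and 3 higher, with a median of -0.66, or -1.32 with the scanner software's ratio. Igsf10 was lower, at -5.06 and -5.20 at 1 of 2 probes, and Nid1 (nidogen, of basement membranes) by -4.22 and -4.39. Tgfbi and Spp1 (osteopontin) had mean ratios of -3.40 and -2.26, and Fn1 (fibronectin) had -0.92 and was not called, although 1 of its 4 tested probes was. Ccn2, a target of TGF-beta and YAP, was higher by 2.14 and 1.66, and Nid2 and Spon2 were higher by 1.21 and 1.88. Of 18 TGF-beta and YAP response genes tested, Ccn2 alone was called higher and 4 were lower, with a median of -0.46. The enzymes that cut matrix followed: 7 of 32 proteases and inhibitors were lower, led by Serpinf1 (PEDF) at -3.58, Mmp2 at -3.38 and Mmp3 at -3.22, while Serpine2 was higher by 1.94. Of integrins and laminins, 4 of 24 were higher and 3 lower. The epithelial partners Lama5, Itgb4, Itga3 and Itga6 were the higher ones, at 2.04, 1.88, 1.36 and 1.23, and Lama2, Itga8 and Itgb7 the lower ones. N-cadherin (Cdh2) was higher by 2.03 and 1.81 at 1 of 3 probes, and the adhesion gene Clmp was lower, at -5.29 and -5.46.

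**Figure D4:**
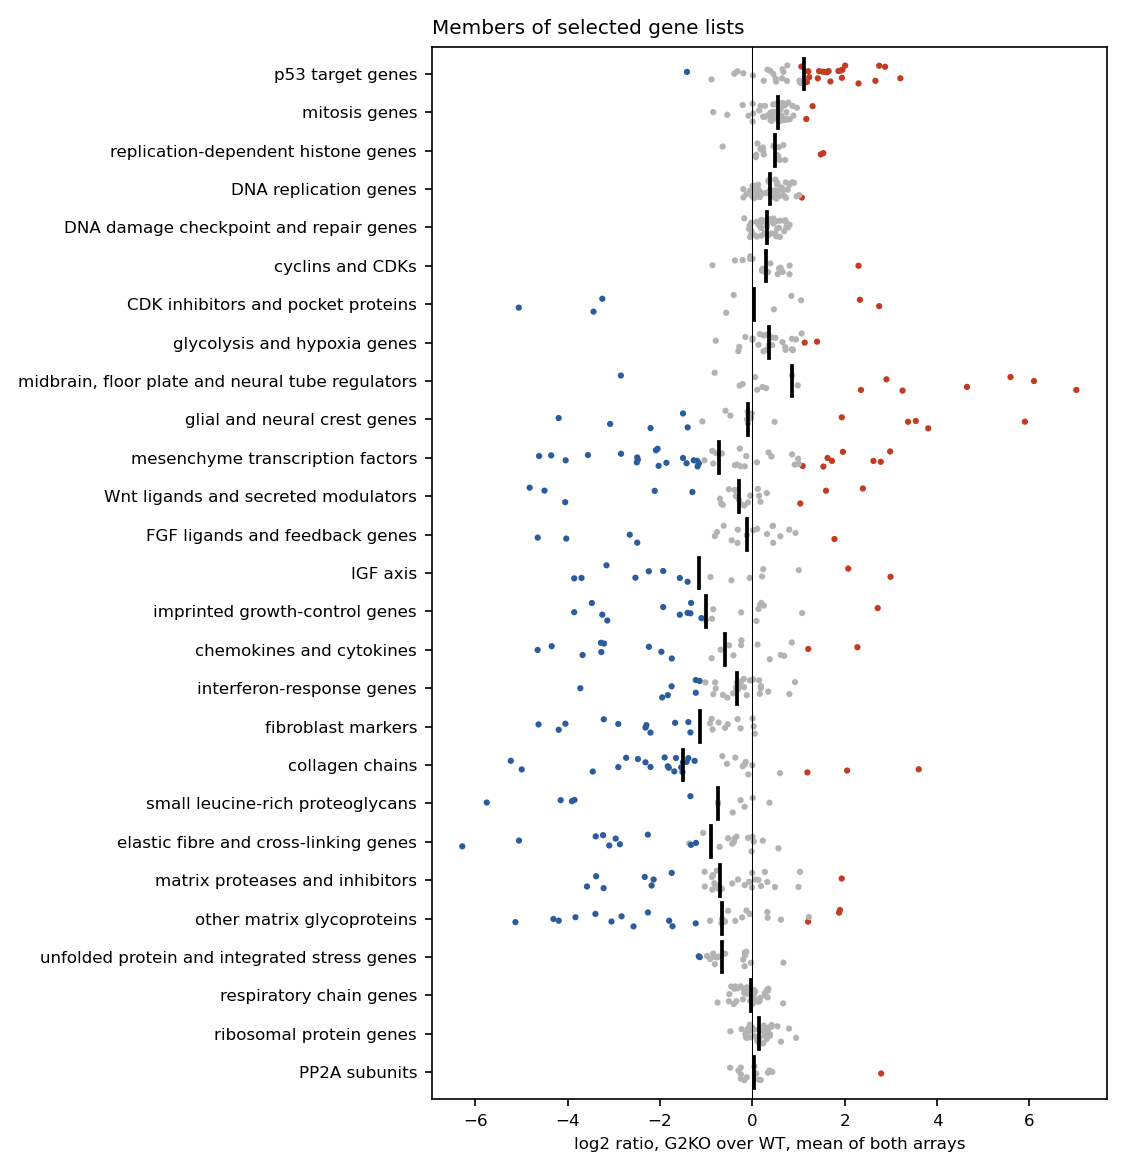
Log2 ratio of G2KO over WT (x axis, mean of both arrays) for the tested members of selected gene lists (y axis), 1 point per gene, with red for called higher, blue for called lower, grey for not called and a black bar at the list's median. The bar lies at 1.12 for p53 targets and at 0.56 for mitosis genes, and at -1.13 for fibroblast markers and -1.50 for collagen chains.

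Secreted signals were lower for several ligands of fibroblasts. Of the FGF family list, 4 of 21 were lower and 1 higher. Fgf7, a growth factor for epithelia, was lower, at -4.63 and -4.66, and Fgf5, Fgf18 and Fgf10 had means of -4.03, -2.65 and -2.49. The feedback phosphatase Dusp4 was higher by 1.78. Fgf7 was at 7.86 in the RNA labelled G2KO against 12.51, 10.09 and 11.04 in the other 3 cultures, in the order WT of the pair, other WT and G1KO. Of Wnt ligands and modulators, 5 of 23 were lower and 3 higher. The antagonists Dkk2 and Sfrp2 were lower, with means of -4.82 and -4.50, and the agonist Rspo2 at -4.05. Wnt4 and Lef1 were higher by 2.39 and 1.60. Sfrp2 was at 7.70 in the RNA labelled G2KO and 7.76 in the other WT, and at 12.20 and 12.44 in its own WT and G1KO.

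The BMP and TGF-beta list held 7 lower and 4 higher of 27. Chrdl1, a BMP antagonist, was lower, at -4.81 and -4.63, and the ligands Tgfb3, Bmp3 and Bmp4 with means of -3.21, -3.09 and -3.06. Fst (follistatin), Id2, Id1 and Inhbb were the higher ones, at 2.17, 1.64, 1.57 and 1.42. Among other growth factors and receptors, 7 of 26 were higher, among them Areg, Met, Pdgfa and Hbegf, and 6 were lower, led by Pdgfra and by Bdnf at -3.77. Chemokines and cytokines were lower for 9 of 22, with 2 higher. Ppbp and Cxcl1, neutrophil chemokines, were at least 12.6-fold and 9.15-fold lower, Cxcl5, above background in the knockout channel on 1 of 2 arrays, was lower, at -4.74 and -4.56, and Ccl2, which draws monocytes, by -3.03 and -3.51. The interferon list had 7 lower and 0 higher of 31, with Ifi27 at -3.72 and Ifit3 at -1.75, while Irf7 at -0.18 was not called.

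Genes of the IGF axis and imprinted genes had medians of -1.15 and -1.01. In the first list 8 of 16 were lower and 2 higher, and in the second 10 of 21 were lower and 1 higher. The lists share Igf2, H19, Igf2r and Grb10. Igf2, the fetal growth factor, was lower, at -3.86 and -3.85, and both of its probes were called. Igfbp2 and Igfbp7, which bind IGFs, had means of -3.70 and -3.16, and Igfbp3 and Igfbp5 were higher at 2.99 and 2.08. Plagl1, which encodes a factor that regulates other imprinted genes, was lower, at -3.44 and -3.51, and Ndn (necdin) was higher by 2.78 and 2.65. Igf2 was at 8.94 in the RNA labelled G2KO, 12.80 in its WT, 10.18 in the other WT and 11.30 in G1KO.

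Guidance molecules and retinoid genes were mixed, and markers of other cell types differed by list. Of 40 axon guidance genes, 8 were higher and 6 lower, with Slit3, a repellent, at -4.36 and -4.51 and the semaphorin Sema3e at 2.74 and 2.48. Aldh1a1, an enzyme that makes retinoic acid, was higher by 3.91 and 3.77, but its level of 11.71 was below the 16.03 of the other WT and above the 7.87 of its own. Cyp26b1, which degrades retinoic acid, was higher by 2.50, and the binding protein Crabp1 was lower, at -2.45. Mesothelial markers numbered 8 detected of 20 in the RNA labelled G2KO and 11 in its WT, against 19 and 20 in the other WT and G1KO. Upk3b, Krt8 and Lrrn4 were among those detected in neither culture of the pair. Of 12 mesothelial markers tested, Aldh1a1, Igfbp5, Podxl and Msln were higher and Bnc1, Krt19 and Tbx18 lower. Of 8 epithelial markers tested, Krt7 and Trp63 were higher, Krt7 by a mean of 2.06, and Krt19 was lower. Of 7 pluripotency and germ cell markers tested, Sox2 was higher and Klf4 lower, and of 5 blood and 3 skeletal muscle markers tested, 0 were called. The epithelial markers Epcam and Cdh1, the endothelial markers Pecam1 and Cdh5, the blood markers Ptprc and Itgam, the muscle factors Myod1 and Myog, and the pluripotency genes Pou5f1 and Nanog passed background on both arrays in neither culture, although Cdh1, Myog, Nanog and Myod1 did so on 1 array. Of 5 endothelial markers tested, Erg and Flt1 were lower, with means of -3.11 and -1.42. Of 19 smooth muscle and myofibroblast genes, Itga8 and Myl9 were lower and 0 higher, with Acta2 at 0.09. Adipocyte and lipid uptake genes were lower for 4 of 14 tested, with 0 higher. Cartilage and bone genes were lower for 4 of 15, with 1 higher.

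Metabolic, stress and housekeeping lists differed in how many members were called. Of 36 respiratory chain genes and 39 ribosomal protein genes tested, 0 were called, with medians of -0.03 and 0.16. Glycolysis and hypoxia genes had a median of 0.37 over 28 tested, and Hk2 and Tpi1 were called, at 1.40 and 1.14. Of 23 cholesterol genes, Tm7sf2 alone was called, at 1.16, and the list's median was -0.30, or -0.16 under median centring. Genes of the unfolded protein response had a median of -0.65 over 18, and Sdf2l1 and Herpud1 were lower, at -1.16 and -1.14. Under the NRF2 list, which answers to oxidants, 3 of 28 were higher and 3 lower, with Mgst1 at 3.14 and Cbr3 at -3.05. Tfrc and Ywhaz, listed as housekeeping genes, were higher by 1.30 and 1.29, while Actb and Ppia had mean ratios of 0.12 and -0.05.

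The remaining genes with the largest ratios stood outside these groups. Among those higher were Cd24a, a surface glycoprotein, at 4.24 and 4.07, Lhfpl4, of inhibitory synapses, at 3.85 and 3.61, and Cadm1, an adhesion molecule, at 3.58 and 3.79 with all 3 probes called. Gm6212 and Hoatz were higher by means of 4.05 and 3.66. Among those lower were Limch1, which activates myosin, at -5.12 and -4.69 with all 3 probes called, and Ptgs1 (cyclooxygenase 1) at -4.89 and -4.83. Tm4sf1 and Lrrc17 were lower, with means of -4.85 and -4.81. Galnt14 and Esx1 were at least 6.19-fold and 5.58-fold higher, and C130071C03Rik, a noncoding transcript of the brain, at least 6.89-fold. The transcripts named in the files BC021831 and NAP019557-001 were at least 4.20-fold and 4.44-fold higher. Ptgfr (a prostaglandin receptor), Plxnc1 and Abi3bp were at least 7.20-fold, 5.66-fold and 6.44-fold lower, and D630004D15Rik at least 11.4-fold. Among all called probes, 42 of those higher had WT below background on each array, and 81 of those lower had the knockout below it.

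Over all called probes, the WT of the other pair lay nearer to the RNA labelled G2KO than to the WT of the pair for 771 of 1619 (47.6%). The count was 246 of 587 probes called higher (41.9%) and 525 of 1032 called lower (50.9%). A difference within the pair was thus about as often shared with the other WT by one member as by the other. The p53 targets, with 18 of 22, and the collagens Col1a1 and Col11a1 show both arrangements. The cause of these arrangements was not tested.

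Ratios also differed by chromosome by small amounts that both arrays shared. The median was 0.21 on chromosome 6, 0.16 on chromosomes 10 and 18 and 0.11 on chromosome 7. It was -0.17 on chromosomes 8 and 5, and -0.15 on chromosomes 4 and 9. On chromosome 6 the arrays gave 0.22 and 0.20, and on chromosome 8 -0.17 and -0.19. Chromosome 11, with a median of 0.00, was not even along its length: probes between 50 and 80 Mb had medians from 0.17 to 0.24, and those from 90 to 120 Mb from -0.16 to -0.09. The G1KO pair, measured on the same probes, gave 0.01 on chromosome 6 and -0.29 on chromosome 10. Over all tested probes of the G2KO pair, 2.31% were called higher and 4.06% lower, and on chromosome 5 these shares were 1.7% and 4.37%. Around the targeted gene, 162 probes within 10 Mb of the Ccng2 probe were tested, with a median of -0.13, 4 called higher and 19 lower. Those lower included the chemokines Ppbp, Cxcl1, Cxcl5 and Cxcl10, which lie together there, and Fgf5. The shifts in the chromosome medians are small beside 2-fold, and their part in the list medians was not tested.

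**Figure D5:**
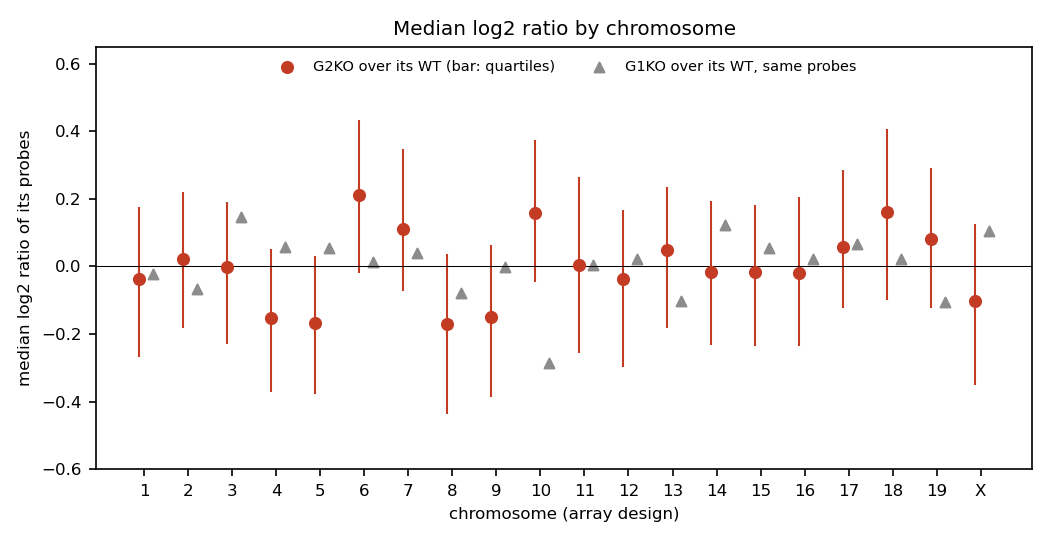
Median log2 ratio of the tested probes of each chromosome (y axis) for G2KO over its WT (circles, bars from the lower to the upper quartile) and for G1KO over its WT at the same probes (triangles). Among the autosomes, chromosomes 6, 10 and 18 lie highest in the G2KO pair and chromosomes 5 and 8 lowest, and chromosome 10 is lowest in the G1KO pair.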

How the data were processed

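Total RNA of 1 culture per genotype was labelled from an oligo-dT primer and hybridised to Agilent arrays, 2 per comparison with the dyes exchanged. All 4 arrays lay on 1 slide, so slide and scan could not be fitted. The authors deposited scanner files that hold intensity on a linear scale (mean signal of a spot and median local background, uncorrected) and the scanner software's log10 ratio, and a series table of log10 ratios turned to knockout over WT. Feature Extraction is version 10.5.1.1 in the file headers and 9.1 in the submitters' processing notes, and the study's methods name a further version. Log2 ratios were computed here from the intensity values that the authors deposited.

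Intensities were corrected with normexp (offset 50) and loess in limma 3.58.1 (R 4.3.3). Control and outlier-marked spots were left out, spots of a probe were averaged, and ratios were turned to knockout over WT and averaged over both arrays. Of 43379 gene spots, 25366 to 27711 per channel were well above background on the pair's arrays, and 0 were saturated. The number of arrays limits the precision. Levels came from loess followed by Aquantile. Probes were named by RefSeq (GRCm38.p6): 24375 through an accession, 6301 through a current symbol and 2426 through a former one, while 8072 kept the name in the files. Positions are on mm8 as the array design gives them. Promoters are RefSeq's, and the bases after the transcript start were not searched.

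The genes named were Ccng1, Ccng2, sex-linked genes and those in the study's text, the 15 largest ratios and 8 largest bounds in each direction, and the members of 53 lists with the largest ratios or a role the account needed. Members, lists and rules were chosen with earlier results of these data known. The steps were tested on simulated data with changes only in brighter probes, about as many higher as lower. That test did not cover dim probes, bounds or an excess of falls. Alternatives were another ratio, background correction, normalisation, filter, threshold or probe choice, and each array alone. Results for some genes are not reported here.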

Additional observations from a re-analysis of the deposited data

How the results depend on the processing

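The count of called probes depended on the processing, while the directions of the named genes that were called did not. Against 1619 probes (587 higher, 1032 lower), the scanner software's own log ratio gave 3396 (1415 and 1981) and the series table, which holds the same ratio, 3392 (1414 and 1978). Plain background subtraction gave 2640 (990 and 1650), median centring in place of loess 955 (329 and 626), and a 4-fold threshold 467 (132 and 335). The other alternatives stayed within 1.5 times, and the share of called probes whose level in the other WT lay nearer to G2KO moved from 47.6% to 47.3% and 48.4%. No called gene among the 309 named ones changed direction under any alternative, and 33 of 197 dropped under the threshold under at least 1, mostly under median centring. The median of p53 targets ranged from 1.04 to 1.32, that of mitosis genes from 0.53 to 0.66 and that of collagen chains from -1.54 to -0.65. The median changed sign for FGF genes over all probes of a gene (0.0216) and mesothelial markers above background in both genotypes (0.972). It also did so for ribosomal protein genes on the array with knockout RNA in Cy3 (-0.0606) and immediate early genes under median centring (0.0136). Some lists with medians nearer 0 changed sign as well. Among these were PP2A subunits (from -0.08 to 0.15), Hox genes (-0.09 to 0.12) and respiratory chain genes (-0.06 to 0.12). The cause was not tested. No paired analysis was possible because each genotype had 1 culture. Dim probes are limited by their signal over background and give bounds.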
